A study of Mus musculus with 8 samples.

Results

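Voltage-gated calcium channels open when a membrane depolarizes and let calcium into the cell, where it triggers transmitter release, shapes firing and reaches the nucleus as a signal for transcription. Each channel is built around a single large pore subunit, called alpha1, that holds the voltage sensors and the calcium filter. In the brain the pore subunits fall into the Cav1 channels, which pass the long-lasting L-type current, the Cav2 channels, which pass the P/Q-type, N-type and R-type currents of presynaptic terminals and dendrites, and the Cav3 channels, which open near rest and pass the transient T-type current. The genes examined were the 8 brain pore subunit genes Cacna1a, Cacna1b, Cacna1c, Cacna1d, Cacna1e, Cacna1g, Cacna1h and Cacna1i, picked by symbol from a table of 24343 genes. They have 28 of the 34535 transcripts in that table.

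The samples were whole brains of 3 C57BL/6NCrl mice 56 to 62 days of age, a wild-type inbred strain, kept without any treatment and all of a single condition. RNA was sequenced in 3 libraries of mouse 1, 3 libraries of mouse 2 and 2 libraries of mouse 3. The labels do not say what the library numbers stand for, so p-values between mice measure only the spread between these libraries, which may be technical. Levels are FPKM, the fragments per kilobase of transcript scaled to all mapped fragments of a library, which the authors deposited for each transcript and which were summed here over the transcripts of a gene. Levels are given as the mean ± SD over the 3 mice, after averaging the libraries of each mouse. In bulk RNA of a whole brain, fewer cells of a type and less RNA per cell cannot be told apart.

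The libraries held 1.31 to 2.02 gigabases of sequence on transcripts. Library 2 of mouse 3 stood apart from the other libraries in a length-dependent way. When genes were split by transcript length into 5 bins of equal size, the median deviation of this library from the mean of the 8 libraries was 0.42 on the log2 scale in the bin of the shortest transcripts and -0.24 in that of the longest. Library 1 of mouse 3 deviated the same way by less (0.20 and -0.06), and library 1 of mouse 2 was at -0.34 and 0.02. Calls that rest on this library are given with and without it. Markers of neurons, astrocytes, oligodendrocytes and microglia were found in every library, as the whole-brain label says.

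All 8 pore subunit genes were expressed, and their levels summed to 69.0 ± 11.4 FPKM, or 72.4 ± 5.57 FPKM without library 2 of mouse 3. The level fell from Cacna1a at 18.5 ± 3.04 FPKM to Cacna1d at 4.11 ± 0.666 FPKM. The 13001 genes whose mean reached 1 FPKM had a median level of 8.81 FPKM, and among them Cacna1a stood at the 72.4th percentile and Cacna1d at the 26.7th. The 2 pore subunit genes known mainly from other tissues, Cacna1f of the retina and Cacna1s of skeletal muscle, were at 0.0212 ± 0.00863 and 0.165 ± 0.0504 FPKM.

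Among the Cav2 channels, Cacna1a (chr8:84415364-84640249, plus strand) encodes Cav2.1, the P/Q-type channel that drives transmitter release at most central synapses and carries most of the calcium current of Purkinje cells. Its level was 19.9, 20.6 and 20.4 FPKM in the libraries of mouse 1, 19.0, 21.0 and 20.7 FPKM in those of mouse 2, and 17.2 and 12.8 FPKM in those of mouse 3. Both libraries of mouse 3 were below all others. Cacna1e (chr1:154392519-154725920, minus strand) encodes Cav2.3, the R-type channel of dendrites and spines. It had the second level in the order, 11.3 ± 2.15 FPKM, with 13.0, 12.9 and 12.3 FPKM in mouse 1, 12.9, 12.0 and 12.1 FPKM in mouse 2 and 11.3 and 6.37 FPKM in mouse 3. Library 1 of mouse 3 lay just under the other mice, and library 2 was at 51.5% of the mean of the other 7 libraries. Cacna1b (chr2:24603889-24763152, minus strand) encodes Cav2.2, the N-type channel, the target of omega-conotoxin at nerve terminals. It was at 7.39 ± 1.59 FPKM, with 8.32, 8.56 and 8.41 FPKM in mouse 1, 7.09, 8.77 and 8.71 FPKM in mouse 2 and 6.82 and 4.30 FPKM in mouse 3. Its coefficient of variation between mice, 21.5%, was the highest of the 8 genes, and was 11.1% without library 2 of mouse 3.

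Among the Cav3 channels, Cacna1g (chr11:94408391-94474198, minus strand) encodes Cav3.1, the T-type channel that supports burst firing of thalamic relay neurons. It had the highest Cav3 level, 10.5 ± 1.66 FPKM, with 11.6, 11.5 and 12.1 FPKM in mouse 1, 9.85, 12.0 and 11.9 FPKM in mouse 2 and 9.56 and 7.75 FPKM in mouse 3. The libraries of mouse 3 were the lowest, with library 1 of mouse 2 next to them. Cacna1i (chr15:80287238-80398292, plus strand) encodes Cav3.3, the T-type channel of the reticular thalamic nucleus. Its level of 7.48 ± 0.513 FPKM varied least between mice, with a coefficient of variation of 6.86% where the median of all tested genes was 12.3%, or 1.15% and 10.5% without library 2 of mouse 3. It was at 7.75, 7.52 and 8.14 FPKM in mouse 1, 6.79, 8.35 and 8.09 FPKM in mouse 2 and 7.63 and 6.15 FPKM in mouse 3, so that mouse 3 overlapped the other mice. The coefficients of variation are those of mouse means and leave out the spread between libraries, which in mouse 2 ran from 6.79 to 8.35 FPKM. Cacna1h (chr17:25374287-25433783, minus strand) encodes Cav3.2, a T-type channel best known from sensory neurons. It was at 4.27 ± 0.809 FPKM, with 5.05, 4.55 and 4.96 FPKM in mouse 1, 4.12, 4.48 and 5.27 FPKM in mouse 2 and 4.23 and 2.47 FPKM in mouse 3. Here too library 1 of mouse 3 lay within the range of mouse 2.

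Among the Cav1 channels, Cacna1c (chr6:118587240-119196409, minus strand) encodes Cav1.2, the L-type channel of neuronal cell bodies and dendrites and of heart and smooth muscle. It was at 5.38 ± 1.02 FPKM, with 6.08, 5.95 and 5.62 FPKM in mouse 1, 5.87, 5.98 and 6.27 FPKM in mouse 2 and 5.23 and 3.19 FPKM in mouse 3. Cacna1d (chr14:30039941-30491156, minus strand) encodes Cav1.3, the L-type channel that opens at less depolarized voltages and paces neurons, hair cells and the sinoatrial node. It had the lowest level, with 4.52, 4.30 and 4.77 FPKM in mouse 1, 4.44, 4.36 and 4.57 FPKM in mouse 2 and 4.10 and 2.59 FPKM in mouse 3. In both genes the libraries of mouse 3 were the lowest, and library 1 was within 1 FPKM of the nearest other library.

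**Figure D1:**
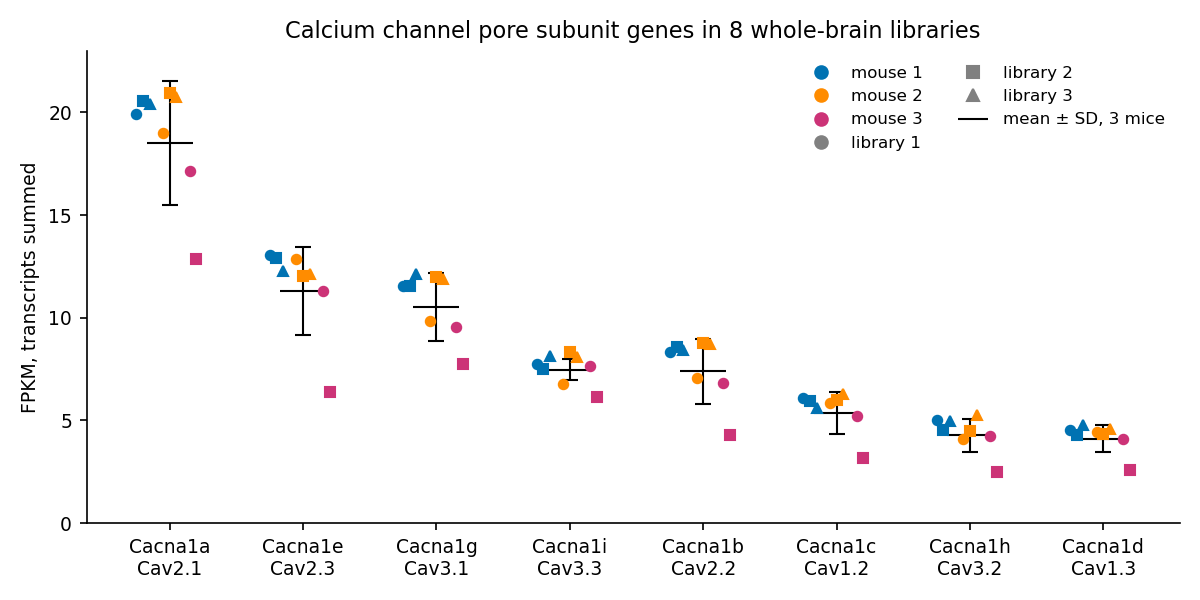
Level (FPKM, transcripts summed) of each pore subunit gene in the 8 libraries, with the mouse as colour, the library number as marker shape and the mean ± SD over 3 mice as black bars. Cacna1a lies above all other genes in each library, and library 2 of mouse 3 is the lowest library for every gene.

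Neighbours in this order were compared by their log2 ratio in the 3 mice, for which an exact sign-flip permutation test, two-sided, cannot give a p below 0.25. Cacna1a exceeded Cacna1e 1.64-fold, in 8 of 8 libraries. Cacna1g exceeded Cacna1i 1.40-fold, Cacna1b exceeded Cacna1c 1.37-fold and Cacna1c exceeded Cacna1h 1.26-fold, each in 8 of 8 libraries. The other 3 neighbours were close. Cacna1e was above Cacna1g 1.07-fold in 7 of 8 libraries, and Cacna1h above Cacna1d 1.04-fold in 6 of 8. Cacna1i and Cacna1b differed 1.03-fold on average and did not differ beyond their spread, since Cacna1i was the higher in 2 of 8 libraries, both of mouse 3, and in 1 of 3 mice (exact permutation p = 1). For the other 6 pairs p was 0.25, the smallest possible, and 0.292 after Benjamini-Hochberg adjustment over the 7 pairs. The library ranges overlapped in all 7 pairs.

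By subfamily, the Cav2 genes gave the largest part of the pore subunit FPKM. Their share was 53.8 ± 1.13%, against 32.5 ± 1.42% for Cav3 and 13.7 ± 0.328% for Cav1, and this order held in all 8 libraries. The summed levels behind these shares were 37.2 ± 6.78 FPKM for Cav2, 22.3 ± 2.98 FPKM for Cav3 and 9.49 ± 1.68 FPKM for Cav1. The Cav3 share was 31.9%, 31.1% and 32.9% in mouse 1, 29.7%, 32.3% and 32.5% in mouse 2 and 32.4% and 35.8% in mouse 3. Library 2 of mouse 3 had the highest Cav3 share and the lowest Cav2 and Cav1 shares, 51.5% and 12.7%. None of the 3 shares differed between the mice beyond the spread of libraries when the libraries were regrouped in all 280 ways (exact permutation test), for which the smallest possible p is 0.00357. The exact permutation p was 0.279 for Cav3, 0.204 for Cav2 and 0.621 for Cav1, or 0.418, 0.418 and 0.621 after adjustment over the 3 shares.

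Several of these genes are known to make channels of different gating by alternative first exons and alternative splicing, and the deposited transcripts, named by their RefSeq identifiers, separate some of these forms. Cacna1c was listed with 11 transcripts from 3 start sites and Cacna1d with 3 transcripts from 2. The 250 bases before each of these 5 start sites are printed to show how unlike these starts are in sequence. They are RefSeq sequence of GRCm38.p6 on the minus strand, written 5′ to 3′, with matches to the GC box GGGCGG or the TATA box TATAAA on either strand in capitals.
Cacna1c, start at 119108495, chr6:119108496-119108745: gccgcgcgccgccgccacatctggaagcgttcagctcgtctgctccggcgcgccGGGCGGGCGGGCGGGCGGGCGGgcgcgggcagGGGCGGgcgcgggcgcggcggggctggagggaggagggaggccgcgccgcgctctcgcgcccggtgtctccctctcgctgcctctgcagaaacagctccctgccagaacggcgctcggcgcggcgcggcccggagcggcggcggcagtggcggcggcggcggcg
Cacna1c, start at 119196409, chr6:119196410-119196659: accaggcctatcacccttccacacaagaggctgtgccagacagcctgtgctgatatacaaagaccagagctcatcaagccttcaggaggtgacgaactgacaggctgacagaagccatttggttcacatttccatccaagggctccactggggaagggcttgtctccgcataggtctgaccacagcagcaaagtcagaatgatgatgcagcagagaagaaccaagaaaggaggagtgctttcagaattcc
Cacna1c, start at 118757974, chr6:118757975-118758224: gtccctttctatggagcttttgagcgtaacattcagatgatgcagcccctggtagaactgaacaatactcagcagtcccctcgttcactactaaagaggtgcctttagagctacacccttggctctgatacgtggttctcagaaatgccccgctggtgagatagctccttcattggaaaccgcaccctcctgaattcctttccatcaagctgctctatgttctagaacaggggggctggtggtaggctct
Cacna1d, start at 30353486, chr14:30353487-30353736: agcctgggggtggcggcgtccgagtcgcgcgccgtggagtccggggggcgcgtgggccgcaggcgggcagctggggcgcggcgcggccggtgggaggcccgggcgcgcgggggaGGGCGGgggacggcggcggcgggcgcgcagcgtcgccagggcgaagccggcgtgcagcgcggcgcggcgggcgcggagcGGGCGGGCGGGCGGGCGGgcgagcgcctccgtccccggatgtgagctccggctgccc
Cacna1d, start at 30491156, chr14:30491157-30491406: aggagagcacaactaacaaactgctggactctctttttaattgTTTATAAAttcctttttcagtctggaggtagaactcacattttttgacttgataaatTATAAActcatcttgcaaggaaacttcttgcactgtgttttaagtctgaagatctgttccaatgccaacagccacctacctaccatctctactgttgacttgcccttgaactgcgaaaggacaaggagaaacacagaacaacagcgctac

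For Cacna1c, 94.3 ± 0.624% of the gene's FPKM was assigned to the 6 transcripts from the first of these starts (lowest library 86.8%, highest 100%). The 4 transcripts from the most upstream start had 5.31 ± 1.13%, from under 0.01 FPKM in 3 libraries to 0.793 FPKM, and the single transcript from the internal start had 0.351 ± 0.608%. The window before the dominant start held 48 CpG dinucleotides, had a GC content of 82.8% and matched the GC box 6 times, with overlapping matches counted. The windows before the other starts held 2 and 5 CpG, had GC contents of 51.6% and 50.4% and no match to either motif. Cacna1d also had 1 start with a CpG-rich window and 1 without. The start at 30353486 had 72.8 ± 8.40% of its FPKM and a window with 50 CpG, 86.4% GC and 5 GC boxes. The start at 30491156 had 27.2 ± 8.40%, from 0.257% to 50.8% in single libraries and the larger share in 1 of them, and a window with 2 CpG, 39.6% GC and 3 matches to the TATA box, of which 2 lie on opposite strands and overlap. The median over 32851 RefSeq promoter windows of this length was 6 CpG, 32.7% of them held a GC box and 12.4% a TATA box. Matches were counted anywhere in a window, at any distance from the start, so a match does not show that the motif is used. With 5 start sites in 2 genes, this is a description.

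The Cacna1d start sites varied between libraries more than the gene did. The transcript from the start at 30491156, NM_028981, was at 1.58, 1.91 and 1.16 FPKM in mouse 1, 1.25, 0.343 and 2.32 FPKM in mouse 2 and 1.47 and 0.00665 FPKM in mouse 3. In library 2 of mouse 2 and library 2 of mouse 3, where it was low, the transcript NM_001083616 from the other start was at 1.18 and 1.09 FPKM, while it was at most 0.0913 FPKM in the other 6 libraries. These transcripts share most of their exons, and the division of reads between them was estimated by the authors' software, so a single transcript's value is known less well than the gene's. The most abundant Cacna1d transcript, NM_001302637, had 62.2 ± 2.58% of the gene's FPKM and was the highest of the 3 in 7 of 8 libraries.

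Among the Cacna1g transcripts, NM_001177888 had 51.5 ± 3.16% of the gene's FPKM, NM_009783 had 42.3 ± 2.68%, NM_001177890 had 6.09 ± 0.916%, from under 0.01 FPKM in 3 libraries to 13.7%, and NM_001112813 had 0.0295 ± 0.0242%. Cacna1b was almost wholly NM_001042528, with 97.1 ± 1.29%. Coding segments of 12 or more bases by which these transcripts and those of Cacna1d differ, apart from the alternative first segments of Cacna1d, are printed because they show which form of the channel the values stand for. They come from GENCODE M21 transcripts of GRCm38 whose coding length differs from the deposited transcript length by the same amount for each transcript of Cacna1b, of Cacna1g and of a given Cacna1d start site, and they are written on the minus strand, 5′ to 3′.
Cacna1g, exon of 69 bases, chr11:94439709-94439777: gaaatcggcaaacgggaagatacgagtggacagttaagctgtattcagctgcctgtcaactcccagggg
Cacna1g, exon part of 21 bases, chr11:94425764-94425784: gtaaggagaagcagatggccg
Cacna1g, exon part of 51 bases, chr11:94459827-94459877: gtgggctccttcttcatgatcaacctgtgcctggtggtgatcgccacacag
Cacna1b, exon of 108 bases, chr2:24618255-24618362: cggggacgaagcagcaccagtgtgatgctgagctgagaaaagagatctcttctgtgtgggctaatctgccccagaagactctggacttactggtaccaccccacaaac
Cacna1b, exon of 12 bases, chr2:24656711-24656722: gagcttcatggg
Cacna1d, exon of 45 bases, chr14:30082952-30082996: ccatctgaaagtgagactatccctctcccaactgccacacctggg
Cacna1d, exon of 60 bases, chr14:30129789-30129848: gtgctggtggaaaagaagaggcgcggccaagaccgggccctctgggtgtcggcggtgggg

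Each of these segments is a whole number of codons, so that the reading frame is the same with and without it. The 69-base exon of Cacna1g is held by NM_009783 alone and thus by 42.3 ± 2.68% of the Cacna1g FPKM. Its share was 39.5%, 40.6% and 40.8% in mouse 1, 52.9%, 44.3% and 38.9% in mouse 2 and 38.7% and 44.0% in mouse 3, and only library 1 of mouse 2 was over 45%. The mice overlapped. The 51-base part was held by transcripts with 93.9 ± 0.916% of the FPKM, from 86.3% to 100% in single libraries, and the 21-base part by 42.4 ± 2.66%. The 108-base and 12-base exons of Cacna1b were both held by the transcript with 97.1 ± 1.29%, from 94.2% to 100% in single libraries. Of Cacna1d, the 45-base and 60-base exons were held by the transcript with 62.2 ± 2.58%.

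The remaining genes with several transcripts each had 1 that led in all 8 libraries. NM_001252060 had 76.3 ± 3.69% of the Cacna1a FPKM among 4 transcripts, and NM_021415 had 93.7 ± 4.29% of the Cacna1h FPKM among 2. NM_001159534 had 78.1 ± 5.54% of the Cacna1c FPKM, and 2 of the 11 Cacna1c transcripts, NM_001256000 and NM_001256002, were under 0.01 FPKM in all 8 libraries. These transcripts could not be matched to coding segments by length without ambiguity, and no segment of them is shown. Cacna1e and Cacna1i were each listed with 1 transcript, so their values do not depend on a division between transcripts.

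**Figure D2:**
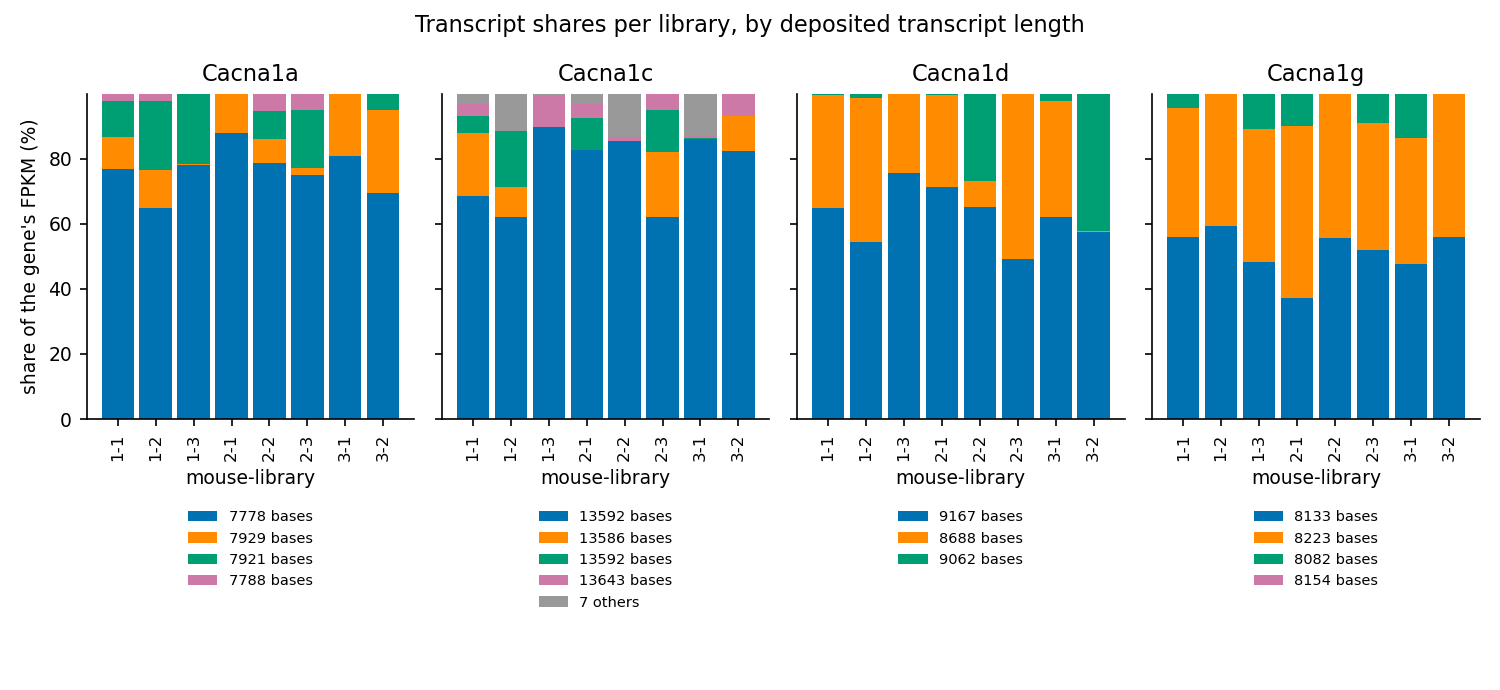
Share (%) of the FPKM of Cacna1a, Cacna1c, Cacna1d and Cacna1g assigned to each transcript in each library (mouse number, then library number), with transcripts named by their deposited length in bases. The largest share stays with 1 transcript of Cacna1a and of Cacna1c in all 8 libraries, while the other two Cacna1d transcripts trade places in libraries 2-2 and 3-2.

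With 1 condition, the comparison that the design allows is between individual mice. In an F-test across mice with limma, on the log2(FPKM + 1) scale, 2 of the 8 pore subunit genes differed between the mice at an adjusted p under 0.05, where 26.9% of all 13001 genes tested did. These were Cacna1a (adjusted p = 0.0355) and Cacna1g (adjusted p = 0.0499). The share of members is near that of all genes. Without library 2 of mouse 3, limma called 0 of the 8, none had an unadjusted p under 0.05, and 2.86% of all genes were called. Without library 1 of mouse 3 it called 7, where 30.2% of all genes were called. Between mice 1 and 2 none of the 8 was called by limma, none had an unadjusted p under 0.05, and 0.00769% of all genes were called.

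The difference lay with mouse 3. The contrast of this mouse with the other mice was chosen when mouse 3 was already known to stand apart. Its p-values therefore describe these libraries and are not an independent test. Compared with the mean of mice 1 and 2, 7 of the 8 genes were lower in mouse 3, where 17.6% of all genes tested were called lower and 20.7% higher, and 40.0% of the 2601 genes in the bin with the longest transcripts, 4684 bases or more, were called lower. All 8 pore subunit genes belong to that bin. The difference on the log2(FPKM + 1) scale, which understates the change of low genes, was -0.42 (SE 0.10) for Cacna1a, -0.53 (SE 0.14) for Cacna1b, -0.51 (SE 0.16) for Cacna1e and -0.37 (SE 0.10) for Cacna1g. It was -0.45 (SE 0.13) for Cacna1c, -0.43 (SE 0.15) for Cacna1h and -0.36 (SE 0.12) for Cacna1d, with limma adjusted p between 0.0117 for Cacna1a and 0.0492 for Cacna1h. The median difference of the 8 genes was -0.42, beside 0.02 over all genes tested and -0.21 over the bin with the longest transcripts. Cacna1i was at -0.16 (SE 0.10) and did not pass the test (adjusted p = 0.241).

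These calls rested largely on library 2 of mouse 3, without which this mouse has 1 library. They were also fewer without any 1 library of mouse 1. Limma then called 3, 3 and 4 of the 8 genes lower, where 13.2% to 14.2% of all genes were. In library 2 of mouse 3 the 8 genes were at 51.5% (Cacna1e) to 79.2% (Cacna1i) of the mean of the other 7 libraries. Their median deviation from the mean of the 8 libraries was -0.57 on the log2 scale, from -0.75 to -0.25. In library 1 of the same mouse the median deviation was -0.04, from -0.15 to 0.02. Without library 2, the difference of mouse 3 was between -0.02 and -0.25 and limma called 0 of the 8 genes lower, 1 at an unadjusted p under 0.05, where 6.36% of all genes were called. For Cacna1a the difference was then -0.23 (adjusted p = 0.0919).

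**Figure D3:**
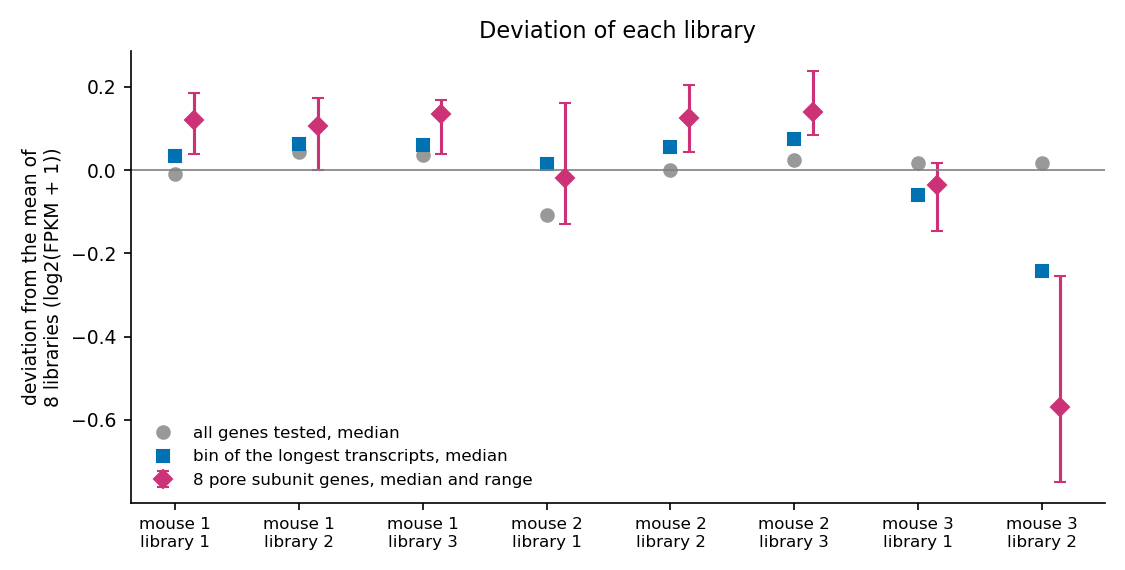
Deviation of each library from the mean of the 8 libraries (log2(FPKM + 1)), as the median of all genes tested (grey circles), the median of the bin of genes with the longest transcripts (blue squares) and the median and range of the 8 pore subunit genes (pink diamonds and bars). The 8 genes lie at a median of -0.57 in library 2 of mouse 3, below the -0.24 of the bin with the longest transcripts.

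The deposited bounds of the FPKM gave the same picture for the genes with 1 transcript. For Cacna1e the bounds in library 2 of mouse 3 were 5.99 and 6.75 FPKM, and the lowest lower bound of the other 7 libraries was 10.8 FPKM. For Cacna1i they were 5.72 and 6.57 FPKM, which overlapped the bounds of library 1 of mouse 2, 6.29 and 7.29 FPKM. The level of confidence of these bounds was not stated.

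The direction was kept under each other way of processing for 7 of the 8 genes, while the calls were not. When a smooth trend on transcript length was removed from each library, 1 of the 8 genes, Cacna1a, was still called lower in mouse 3 (-0.19, adjusted p = 0.0438), where 16.3% of all genes were. Cacna1i then turned to 0.11, with an adjusted p of 0.285. When all libraries were scaled to the same total, all 8 genes were called lower, where 44.1% of all genes were, since this scaling moved the median difference of all genes from 0.02 to -0.23. The median of the 8 genes was then -0.67.

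**Figure D4:**
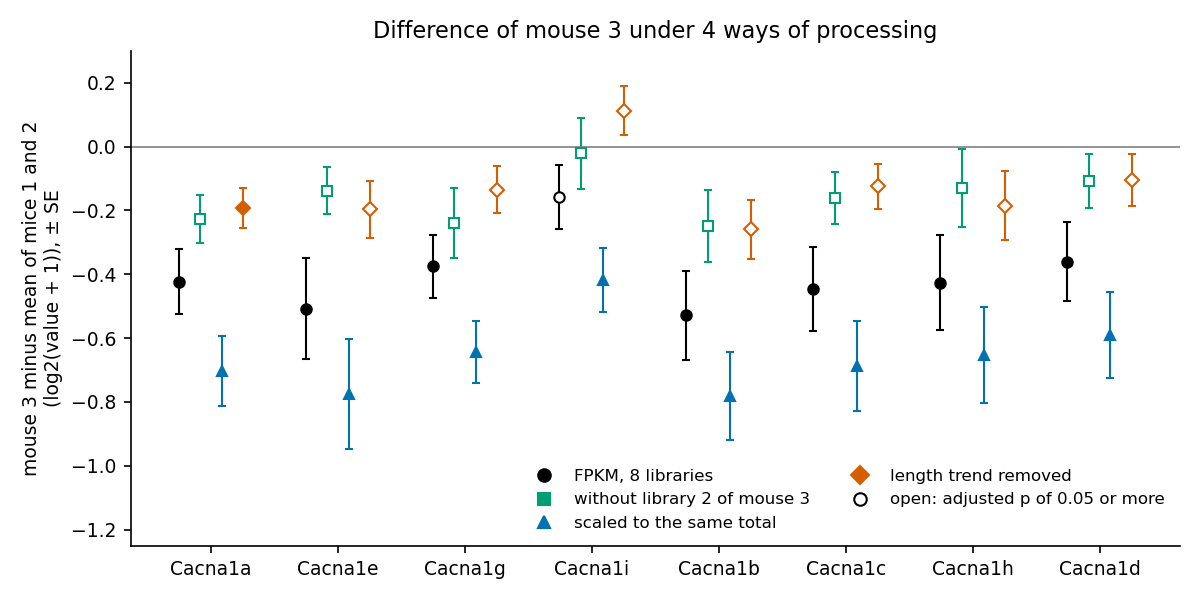
Difference between mouse 3 and the mean of mice 1 and 2 (log2 of the value + 1, with SE) for each pore subunit gene with all 8 libraries, without library 2 of mouse 3, after scaling to the same total and after removal of the length trend. Filled symbols passed an adjusted p of 0.05. Without library 2 of mouse 3 all symbols are open and lie between -0.25 and -0.02.

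Marker genes of cell types moved with mouse 3 as well. Their calls are to be read against the 17.6% of all genes called lower and 20.7% called higher. The summed level of 4 oligodendrocyte markers was 3803 and 4725 FPKM in the libraries of mouse 3 and from 1937 to 2141 FPKM in the other 6, and 4 of 4 were called higher in mouse 3. The summed level of 4 astrocyte markers was 547 and 500 FPKM in mouse 3 and from 363 to 394 FPKM in the others, again with 4 of 4 called higher. The 4 neuron markers summed to 1293 and 1408 FPKM in mouse 3 and from 1498 to 1621 FPKM in the others, and 2 of 4, Rbfox3 and Syt1, were called lower. Neurons are the main site of these channels, and the part of these marker differences in the lower pore subunit levels was not tested. Without library 2 of mouse 3, that mouse has 1 library. The median difference on the log2(FPKM + 1) scale then went from 0.82 to 0.68 for oligodendrocyte and from 0.48 to 0.49 for astrocyte markers. For neuron markers it was -0.32 with and without that library. Scaling to the same total, which moved the median of all genes to -0.23, left 2 of 4 oligodendrocyte and 0 of 4 astrocyte markers called higher and put 4 of 4 neuron markers among those called lower. Of all genes, 44.1% were called lower and 8.58% higher under this scaling.

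Calls in the marker lists of brain regions and other tissues are to be read against the 17.6% of all genes called lower and 20.7% called higher. In mouse 3, 3 of 5 markers were called lower for thalamus, 3 of 5 for hippocampus and cortex and 2 of 5 for striatum. The thalamus sum was 44.8 and 49.5 FPKM in mouse 3 and from 54.1 to 60.0 FPKM in the others. That of hippocampus and cortex was 280 and 254 FPKM against 289 to 344 FPKM. That of striatum was 140 and 126 FPKM against 139 to 169 FPKM. For cerebellum 1 of 6 was called higher and 1 lower, and the sum was 474 FPKM in library 2 of mouse 3 and from 305 to 343 FPKM in the others. For microglia 1 of 4, for endothelium 1 of 3 and for blood 1 of 5 was called higher. Their sums in mouse 3 were 52.5 and 51.5, 34.0 and 36.5, and 801 and 897 FPKM. In the others they ran from 44.2 to 49.9, from 20.4 to 28.2 and from 530 to 659 FPKM. For choroid plexus 1 of 5 (322 to 566 FPKM summed, over all libraries) was called lower. Pituitary (2.12 to 3.17 FPKM) and skeletal muscle (1.83 to 12.9 FPKM, the highest in library 1 of mouse 2) had no call among the 1 marker of each that was tested. Leaving out library 2 of mouse 3 left 1 library of that mouse. Calls were then lost for thalamus, hippocampus and cortex, striatum, cerebellum, microglia and choroid plexus. For endothelium the call moved to another marker, and for blood it was kept. The median difference on the log2(FPKM + 1) scale went from -0.23 to -0.30 for thalamus and from -0.47 to -0.51 for hippocampus and cortex. It went from -0.24 to -0.05 for striatum, from 0.17 to -0.02 for cerebellum and from 0.28 to 0.49 for endothelium. No marker was at 0 in all libraries, and the part of the region markers in the pore subunit levels was not tested.

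Auxiliary subunits set the surface level and the gating of the Cav1 and Cav2 channels. The beta subunits bind the pore subunit inside the cell and bring it to the membrane. They summed to 118 ± 6.07 FPKM, above the 69.0 ± 11.4 FPKM of the pore subunits, with Cacnb3 at 52.5 ± 4.80, Cacnb4 at 31.5 ± 4.10, Cacnb1 at 22.6 ± 4.43 and Cacnb2 at 11.3 ± 1.78 FPKM. In mouse 3, 3 of the 4 were called lower, where 17.6% of all genes were. Cacnb1 was at -0.49, Cacnb2 at -0.38 and Cacnb4 at -0.33 on the log2(FPKM + 1) scale (limma adjusted p = 0.00622, 0.00927 and 0.0104). Cacnb4 belongs to the bin with the longest transcripts, of which 40.0% were called lower. Cacnb3 was at 0.21 and did not pass the test (adjusted p = 0.0843). After removal of the length trend Cacnb3 was called higher (0.18, adjusted p = 0.0440) and Cacnb4 was no longer called (-0.10, adjusted p = 0.503). Under scaling to the same total Cacnb3 was at -0.08, above the median of all genes of -0.23. Cacnb4 alone was called without library 2 of mouse 3.

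The alpha2delta subunits are extracellular proteins anchored to the membrane, and those of Cacna2d1 and Cacna2d2 bind gabapentin. Cacna2d1 was at 27.7, 28.6 and 28.6 FPKM in mouse 1, 29.7, 28.9 and 28.6 FPKM in mouse 2 and 20.6 and 17.2 FPKM in mouse 3. Cacna2d3 was at 26.6, 26.1 and 27.0 FPKM in mouse 1, 27.0, 30.4 and 27.1 FPKM in mouse 2 and 18.7 and 17.7 FPKM in mouse 3. Cacna2d2 was at 14.8, 14.2 and 13.9 FPKM in mouse 1, 13.3, 12.7 and 14.1 FPKM in mouse 2 and 11.0 and 8.76 FPKM in mouse 3. In each of these genes both libraries of mouse 3 lay below all others. All 3 were called lower in mouse 3 by limma, by -0.58 (adjusted p = 0.00162), -0.56 (adjusted p = 0.00150) and -0.45 (adjusted p = 0.00564). Of all genes 17.6% were called lower, and 40.0% of the bin with the longest transcripts, which holds Cacna2d1 and Cacna2d2. All 3 were also called after removal of the length trend (16.3% of all genes) and under scaling to the same total (44.1% of all genes). Without library 2 of mouse 3, which leaves 1 library of that mouse, Cacna2d1 was at -0.46, Cacna2d3 at -0.52 and Cacna2d2 at -0.30. Whether their differences exceeded those of the pore subunit genes was not tested. The fourth, Cacna2d4, was at 0.467 ± 0.0203 FPKM and was not tested.

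The gamma family includes proteins that accompany AMPA-type glutamate receptors, such as stargazin, encoded by Cacng2. It summed to 167 ± 8.96 FPKM, with Cacng7 the highest at 69.9 ± 7.77 FPKM. Of the 6 tested, 3 were called lower in mouse 3, where 17.6% of all genes were. These were Cacng2 at -0.53 (23.6 ± 4.87 FPKM), Cacng3 at -0.62 (31.1 ± 7.25 FPKM) and Cacng8 at -0.42 (20.7 ± 3.39 FPKM), with limma adjusted p of 0.00305, 0.00420 and 0.0223. Cacng4 (0.10), Cacng5 (0.07) and Cacng7 (0.25) did not pass the test. After removal of the length trend Cacng4 and Cacng7, which have transcripts of 984 and 828 bases, were called lower instead of being above 0, so their direction depends on this step, while Cacng5 stayed above 0. Under scaling to the same total these 3 lay below 0 but above the median of all genes. Cacng2 alone was called without library 2 of mouse 3, and Cacng3 was at -0.45 (adjusted p = 0.0543) and Cacng8 at -0.17 (adjusted p = 0.185). Cacng1, of skeletal muscle, and Cacng6 were at 0.0400 and 0.231 FPKM.

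Of 16 partners and regulators, 14 were tested. In mouse 3, 5 were called lower and 2 higher, where 17.6% of all genes were called lower and 20.7% higher. Lower were the calcium sensor of release Syt1 (-0.73), the release-site protein Rimbp2 (-0.51), the calcium-binding protein Cabp1 (-0.27), the release protein Stx1a (-0.23) and the sodium leak channel Nalcn (-0.22). Higher were Rims1 (0.45), which tethers Cav2 channels at release sites, and Stac2 (0.29), an adaptor that slows the inactivation of L-type channels. Under scaling to the same total neither was called higher, though both stayed above 0. The others, Rims2, Rims3, Snap25, Calm2, Calm3, Stac and Rem2, lay between -0.23 and 0.21 and did not pass the test. Of these, Rims2 (-0.39), Snap25 (-0.42) and Calm3 (-0.36) were called lower under scaling to the same total, where 44.1% of all genes were. Rrad and Gem, which encode GTPases that inhibit these channels, were at 0.551 ± 0.0523 and 0.651 ± 0.278 FPKM and were not tested. Without library 2 of mouse 3, which leaves 1 library of that mouse, Syt1 was at -0.59, Rims1 at 0.46 and Stac2 at 0.32. Rimbp2 (-0.24), Cabp1 (-0.21), Stx1a (-0.13) and Nalcn (-0.11) were closer to the other mice and no longer called. After removal of the length trend Rims3 was called lower (-0.39, limma adjusted p = 0.0264). Nalcn was then no longer called (-0.01, limma adjusted p = 0.927), and the other calls stayed.

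**Figure D5:**
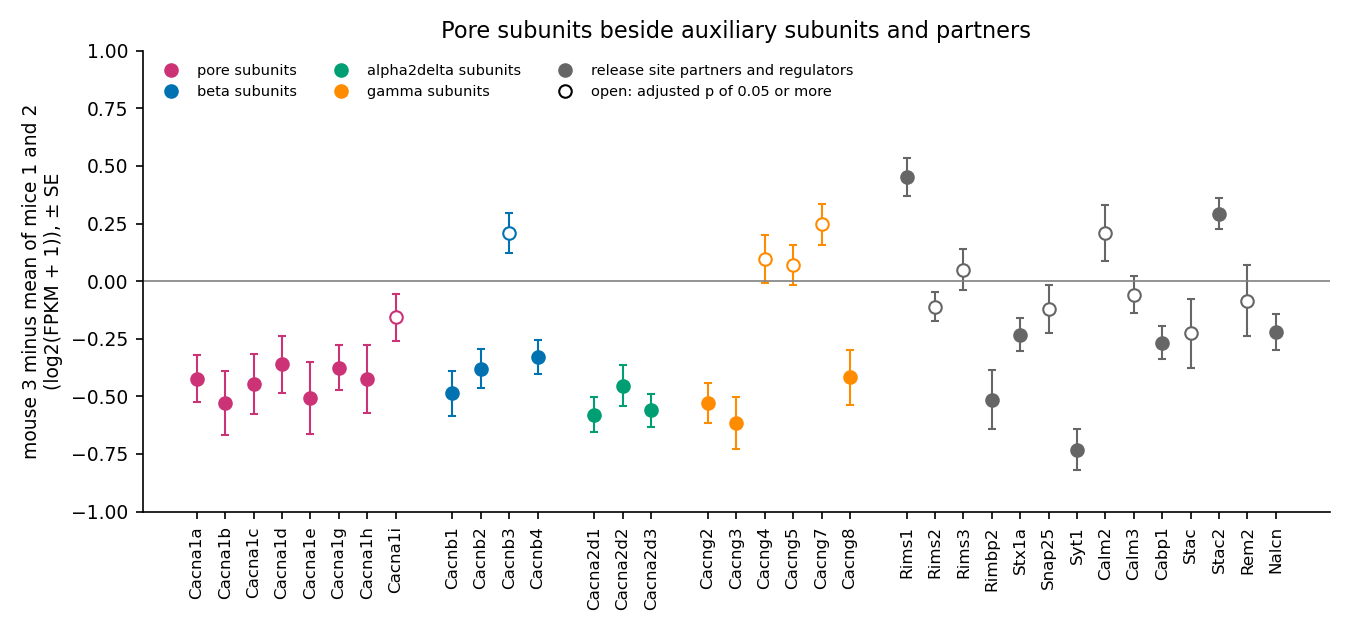
Difference between mouse 3 and the mean of mice 1 and 2 (log2(FPKM + 1), with SE) for the 8 pore subunit genes and the tested beta, alpha2delta and gamma subunits, release-site partners and regulators. Filled symbols passed an adjusted p of 0.05. The alpha2delta genes lie together between -0.45 and -0.58, while the partners range from -0.73 to 0.45.

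Across the 8 libraries, the pore subunit genes varied alike. For each gene, the member most like it had a Pearson's r of log2(FPKM + 1) between 0.907 and 0.991, the highest for Cacna1a with Cacna1b. The values share library and depth, and the correlation rested in part on library 2 of mouse 3. Without it, the same pairs had r between 0.425 (Cacna1d with Cacna1e) and 0.977 (Cacna1g with Cacna1b), and Cacna1a with Cacna1b had 0.947. Cacna1i was the least alike to 6 of the other 7 genes, with r from 0.720 for Cacna1e to 0.892 for Cacna1b. The genes outside the set whose pattern was most like the mean deviation of the 8 genes were Adgrl1 (r = 0.997), Dmxl2 (r = 0.996) and Ranbp10 (r = 0.995), with transcripts of 8188, 10614 and 5308 bases, and 447 of 12993 genes had an r of at least 0.95. Without library 2 of mouse 3, r was 0.968 for Adgrl1, 0.967 for Dmxl2 and 0.949 for Ranbp10. All these correlations, over 8 libraries or fewer, are descriptions.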

How the data were processed

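Whole-brain bulk RNA-seq of 3 mice was analysed, with 3, 3 and 2 libraries. Per the study's methods, RNA of high integrity was kept and polyadenylated RNA libraries were sequenced on a NextSeq500 instrument. The authors deposited, for each RefSeq transcript and library, an FPKM value with lower and upper bounds, a status and a coverage signal, in the columns of a Cufflinks isoform table. The submitters' processing notes name TopHat, Cufflinks and mm10. Their versions, the read length and the strand setting are not given in the sources used here, so reads of overlapping genes on opposite strands may not be told apart. Status was FAIL for 0 values of the 8 genes.

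FPKM was summed over transcripts per gene. Depth was estimated as the deposited coverage multiplied by length, between 1.31 and 2.02 gigabases per library. No counting interval can be had from FPKM, and the spread between libraries and mice is the error. Deposited starts were increased by 1 to count from 1. Differences between mice were tested with limma 3.58.1 in R 4.3.3 (moderated F-test and the contrast of mouse 3 with the mean of mice 1 and 2, trend on mean level) on log2(FPKM + 1) over the 13001 genes whose mean reached 1 FPKM, adjusted over all of them after Benjamini and Hochberg, with a threshold of 0.05. The fit was tested on simulated data. Shares were tested by exact permutation of libraries between mice. The length trend was removed per library by lowess (fraction 0.3, statsmodels 0.14.6). The other alternatives were each library left out, scaling to a common total, the highest transcript, a mean over libraries, a pseudocount of 0.1, no minimum level, the library number as a block and limma without trend.

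The genes named were the 8 pore subunit genes, the other genes of the pathway list (2 of which are not reported here), the member most like each, and the 3 tested genes most like the members' mean deviation. Cell type and region markers were read as summed lists. The members, the lists and the contrast of mouse 3 with mice 1 and 2 were chosen with earlier results of these data known. Promoter windows of RefSeq (GRCm38.p6) held an entry for 5 of the 8 genes.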

Additional observations from a re-analysis of the deposited data

Results flagged for a closer look

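Of 46 levels examined over the 8 libraries, 12 had 1 library far from the rest, with a gap to its neighbour, relative to the whole range, above Dixon's 95% limit for 8 values, which chance gives in about 1 in 20 groups. In 11 of the 12 it was library 2 of mouse 3. It was the lowest library for Cacna1a (12.8 FPKM, next 17.2), Cacna1b (4.30, next 6.82), Cacna1c (3.19, next 5.23), Cacna1d (2.59, next 4.10), Cacna1e (6.37, next 11.3) and Cacna1h (2.47, next 4.12), and for the summed pore subunit level (45.7 FPKM, next 66.0). The same library was the lowest for Cacng8 (13.9 FPKM, next 19.9), Rimbp2 (6.89, next 10.6) and Nalcn (13.0, next 15.4), and the highest for Calm2 (1360 FPKM, next 1084). Rrad was the exception, with library 2 of mouse 2 the highest (0.762 FPKM, next 0.572). Among the pore subunit genes, Cacna1g and Cacna1i did not pass the limit.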

How the results depend on the processing

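The sign of the mouse 3 difference was kept under every alternative run for 7 of the 8 genes, while the counts of genes called were not. The summed level of 69.0 FPKM became 56.3 with the highest transcript of each gene. The F-test called 2 members and 3496 genes, and with libraries left out 0 to 7 members and 372 to 4131 genes. Without any 1 library of mouse 1, or library 2 or 3 of mouse 2, it called 0 members (15.2% to 23.9% of all genes). It called 8 members and 5698 genes after scaling to the same total. It called 0 members after removal of the length trend (22.2% of all genes) and 0 with the highest transcript (19.5%). Without a minimum level it called 0 (12.7%), and without the limma trend 1 (25.5%). Members that differed in mouse 3 numbered 7, between 0 (without library 2 of mouse 3) and 7 with libraries left out, 1 after removal of the length trend, 4 with the highest transcript (1798 of 12830 genes were lower) and 3 without a minimum level (10.3% of genes). Without any 1 library of mouse 1 they numbered 3, 3 and 4 (13.2% to 14.2% of genes). The difference of Cacna1i turned to 0.11 after removal of the length trend. The Cav1 share, which did not differ between mice, turned from lower to higher in mouse 3 without library 2 of mouse 3 (mean 13.9%, range with libraries left out 13.5% to 13.9%), after removal of the length trend (13.8%) and with the highest transcript (11.9%). The cause of these changes was not tested. With the library number as a replicate block, the F-test called 0 members (26.0% of all genes). In that fit 5 members differed in mouse 3 (14.1% of all genes were lower). Deviations of same-numbered libraries correlated by 0.00276 to 0.107 (median 0.0254), and those of differently numbered libraries by -0.135 to 0.0645 (median -0.0197). Values that involve mouse 3 mirror each other, since this mouse has 2 libraries. These values therefore cannot settle whether the numbers pair the libraries, and the numbers were left out of the main fit. Without counts, the depth limits of low transcripts could not be set.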
